A study of Mus musculus with 12 samples.

Results

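The genes described here are 9 genes of heme synthesis and iron handling, chosen by symbol from the 56748 genes of the count table. They are Alas1, Alad, Uros, Urod, Cpox, Ppox and Fech of heme synthesis, Tfrc of iron import and Fth1 of iron storage. All 9 passed the filter on low counts, as did 14794 genes in all, and the 9 had between 199 and 28595 counts in a library. The measurements come from 12 libraries of Ba/F3 cells, a mouse line labelled as pro-B cells that normally needs interleukin-3 (IL-3) to grow. Every group carried NRAS G12D, an active form of a RAS protein, and every group was sorted into medium lacking IL-3 and collected on day 3. The 4 groups of 3 libraries differed in the construct: ETV6 I209S P214L with ZsGreen, ETV6 P214L with ZsGreen, wild-type ETV6 with ZsGreen (ETV6 WT), and ZsGreen alone, a fluorescent protein that serves as the control. ETV6 is a transcriptional repressor of the ETS family. By the stated design, P214L makes a nuclear export sequence in ETV6, I209S breaks it, and the question was whether I209S P214L cells then look like ETV6 WT cells. Nothing in the labels tells if a group's libraries were separate cultures, so the p-values measure only the spread between these libraries, which may be technical. The promoter of the constructs, and whether the cells are clonal, are not given in the sources used here.

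Heme is made in a chain of enzymes that starts and ends in mitochondria. ALAS1, the form of 5-aminolevulinate synthase used by most tissues, makes the first precursor and is usually the limiting step, and ALAD joins the precursor into porphobilinogen. UROS and UROD, in the cytosol, close and trim the porphyrin ring, CPOX and PPOX oxidise it, and FECH inserts iron. The transferrin receptor encoded by Tfrc brings iron into the cell, and ferritin, built of heavy chains (Fth1) and light chains (Ftl1), stores it. Iron regulatory proteins bind hairpins called iron-responsive elements in ferritin and Tfrc transcripts when iron is scarce, which holds back ferritin translation and protects Tfrc mRNA from decay.

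The hairpins are shown because Tfrc and the ferritin chains are the transcripts in which this control is best known. Transcripts of 21877 protein-coding genes (GENCODE M21, GRCm38) were searched for a C, any 5 bases and the loop CAGTGN, with 5 paired bases on the stem (G-T pairs allowed), on the transcript strand. A match was found in 294 genes (1.34%), of which 2 are among the 9 genes, Tfrc and Fth1, and 3 others, Ftl1, Alas2 and Slc40a1, are among their pathway genes. The match lies before the start codon in Fth1 and Ftl1 and after the coding sequence in Tfrc, which has 4. Each sequence below is 30 bases of the transcript, read 5′ to 3′, with the loop in capitals.
Fth1: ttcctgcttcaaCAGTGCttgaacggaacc
Ftl1: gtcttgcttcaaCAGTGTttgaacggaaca
Tfrc element 1: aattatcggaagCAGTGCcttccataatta
Tfrc element 2: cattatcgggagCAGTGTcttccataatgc
Tfrc element 3: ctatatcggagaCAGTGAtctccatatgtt
Tfrc element 4: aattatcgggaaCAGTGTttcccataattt
On GRCm38 the Fth1 element is at chr19:9982732-9982761 (plus strand) and the Ftl1 element at chr7:45459778-45459807 (minus strand). The Tfrc elements are at chr16:32631219-32631248, chr16:32631598-32631627, chr16:32631663-32631692 and chr16:32631710-32631739, all on the plus strand. A match is a description of letters, and the libraries do not measure protein binding or translation.

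The libraries held 14301683 to 18607595 counts. 18S ribosomal RNA took 1.35% of counts in I209S P214L 1 and 1.58% in ETV6 WT 1, and 2.92% to 5.90% in the other libraries. I209S P214L 1 and ETV6 WT 1 stood near each other, with a correlation across genes of 0.53 between their deviations from the group means, so results were also computed without both. Etv6 averaged 99.1 ± 12 CPM in I209S P214L cells, 103 ± 4.64 CPM in P214L cells, 109 ± 11.4 CPM in ETV6 WT cells and 81.7 ± 5.03 CPM in ZsGreen cells (SD, n = 3 each), where CPM is a count scaled to library size with TMM factors. The counts do not separate the construct from the endogenous gene. The pro-B label goes against its markers: 8 of 10 were below 1 CPM in each group, and their summed level was 6.69 to 16.1 CPM over the 12 libraries. Summed erythroid markers (13 of 14 in the table) were 1264 to 1321 CPM in I209S P214L libraries, 925 to 1080 CPM in P214L libraries, 1234 to 1392 CPM in ETV6 WT libraries and 997 to 1062 CPM in ZsGreen libraries. Of these 13, between 4 and 7 averaged below 1 CPM in a group, and 3 had no count in ZsGreen cells. Against ZsGreen, where 41.5% (I209S P214L), 5.08% (P214L) and 37.7% (ETV6 WT) of all genes were called at the threshold given below, 11 erythroid markers were tested. Of these, 5 were higher and 3 lower in I209S P214L cells, 0 were called in P214L cells, and 6 were higher and 3 lower in ETV6 WT cells. Tal1 was the largest part of the sum, with 651, 491 and 675 CPM in I209S P214L, P214L and ETV6 WT cells against 516 CPM in ZsGreen cells, and Hba-a1 had 275, 23.6 and 235 CPM against 35.1 CPM. Klf1 was lower in I209S P214L (19.1 CPM) and ETV6 WT (24.2 CPM) than in ZsGreen cells (41.0 CPM), as were Gata1 and Nfe2. The 7 mast cell and basophil markers summed to 2427 to 2960, 1735 to 1816, 2370 to 3035 and 1788 to 1884 CPM in the libraries of I209S P214L, P214L, ETV6 WT and ZsGreen. Gata2 alone averaged 2598, 1753, 2571 and 1826 CPM of that sum, and of the 5 tested, 2 were higher and 1 lower in I209S P214L, 0 were called in P214L, and 2 were higher and 2 lower in ETV6 WT cells against ZsGreen. The 9 neutrophil and monocyte markers summed to 101 to 139, 150 to 218, 133 to 147 and 59.4 to 72.3 CPM in the same order of groups. Adgre1 carried the higher sums of I209S P214L and ETV6 WT cells (109 and 127 CPM, against 19.9 CPM in ZsGreen cells). Of the 8 tested, Adgre1 was the only one higher in I209S P214L and in ETV6 WT cells, and 6 were lower in each, among them S100a8, Lyz2, Itgam and Mpo, with medians of -3.45 and -2.43 on the log2 scale. In P214L cells 5 of the 8 were higher and 0 lower against ZsGreen. T-lineage markers summed to at most 3.53 CPM and fibroblast markers to at most 0.508 CPM in any library. What part these markers have in the results below was not tested. In bulk RNA of this kind, fewer cells expressing a gene and less of its RNA per cell cannot be told apart.

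Per unit of the deposited gene length, Fth1 stood far above the other 8 genes in every group. In the deposited FPKM, a count scaled by gene length and library size, ZsGreen cells had 381 for Fth1, 64.5 for Alad, 53.0 for Tfrc, 25.8 for Urod, 12.7 for Alas1, 4.70 for Cpox, 4.67 for Uros, 3.42 for Ppox and 1.40 for Fech. The ZsGreen libraries of Uros (3.79 to 5.94 FPKM) overlapped those of both its neighbours, Cpox (4.33 to 5.14 FPKM) and Ppox (2.63 to 4.10 FPKM), and no other neighbours in this order overlapped. In P214L cells the Alas1 libraries (23.5 to 28.6 FPKM) reached above those of Urod (20.2 to 23.8 FPKM), which they stayed below in ZsGreen cells (10.5 to 14 FPKM for Alas1, 25.5 to 26.2 FPKM for Urod). The order depends on the deposited gene lengths. Fech, at 13838 bases, was last in FPKM. Its ZsGreen mean of 19.5 CPM was above those of Uros (16.8 CPM) and Ppox (15.5 CPM), with overlapping libraries. Tests below use the counts.

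**Figure D1:**
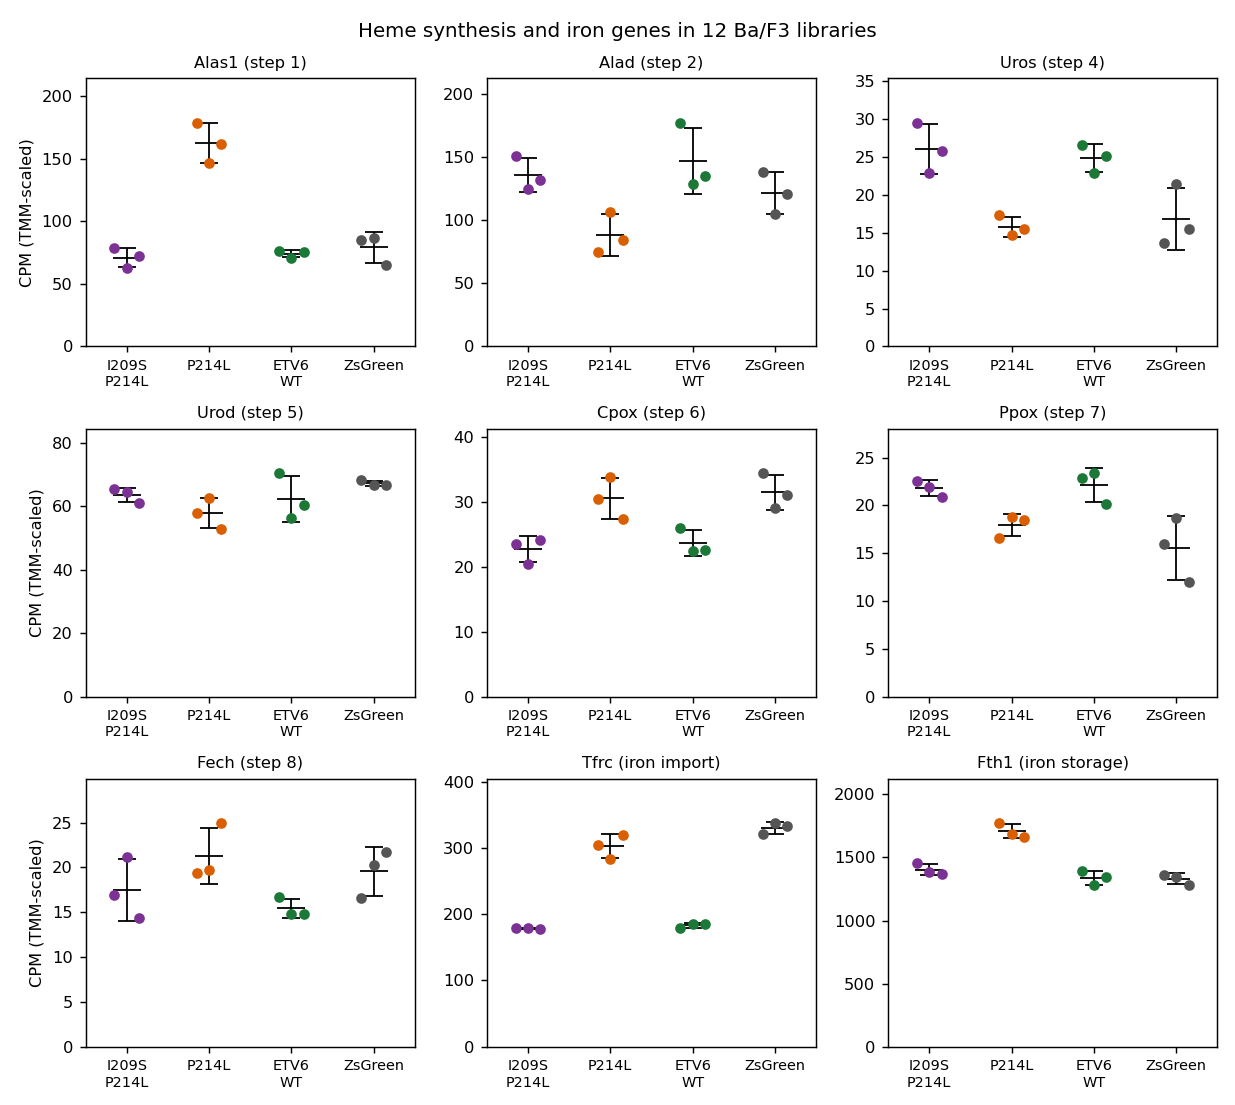
The TMM-scaled CPM of the 9 genes is plotted on a linear axis from 0 for the 3 libraries of each group (points), with the group mean and SD (bars). Alas1 is high in the P214L libraries alone (147 to 178 CPM, against 62.6 to 87.1 CPM in the other 9), while Tfrc is low in both I209S P214L (177 to 179 CPM) and ETV6 WT (179 to 186 CPM).

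Of the 9 genes, 7 differed among the 4 groups by edgeR's quasi-likelihood test with Benjamini-Hochberg adjustment over all genes tested, which all adjusted p-values here use, at a threshold of 0.05; 41.0% of all genes tested did so. The adjusted p of any difference was 6.47e-10 for Tfrc, 4.37e-08 for Alas1, 5.97e-05 for Fth1, 0.000908 for Uros, 0.00142 for Alad, 0.00386 for Cpox and 0.0187 for Ppox. It was 0.0990 for Fech and 0.259 for Urod.

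The first enzyme and the enzymes after it did not move together. Alas1 (ENSMUSG00000032786; mm39 chromosome 9, 106110654 to 106125853, minus strand) had 78.3, 62.6 and 72.4 CPM in I209S P214L libraries, 178, 147 and 162 CPM in P214L libraries, 76.5, 70.7 and 75.5 CPM in ETV6 WT libraries and 85.0, 87.1 and 65.2 CPM in ZsGreen libraries. All 3 P214L libraries lay above all 9 others, and the other 3 groups overlapped one another. Alas1 was 2.05-fold higher in P214L cells than in ZsGreen cells (log2 fold change 1.04 ± 0.11 SE, adjusted p = 1.09e-05) and 2.19-fold higher than in ETV6 WT cells (1.13 ± 0.11, adjusted p = 2.70e-07). It was 2.28-fold lower in I209S P214L cells than in P214L cells (-1.19 ± 0.11, adjusted p = 1.18e-07). Each of these 3 calls held in all 21 settings tried, the one reported and 20 alternatives. Against ZsGreen, Alas1 was not called in I209S P214L cells (-0.15, 95% interval -0.36 to 0.06, adjusted p = 0.284) or in ETV6 WT cells (-0.09, -0.30 to 0.12, adjusted p = 0.547), where an interval is a normal approximation from the SE. The first of these was called without ZsGreen 3 (-0.29, adjusted p = 0.0290).

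Alad (ENSMUSG00000028393; chromosome 4, 62427406 to 62438155, minus strand), which makes porphobilinogen, had 151, 125 and 132 CPM in I209S P214L libraries, 74.4, 107 and 84.4 CPM in P214L libraries, 177, 128 and 135 CPM in ETV6 WT libraries and 138, 105 and 121 CPM in ZsGreen libraries. The P214L libraries lay below every I209S P214L and ETV6 WT library and overlapped the ZsGreen ones. Alad was 1.66-fold lower in P214L cells than in ETV6 WT cells (-0.73 ± 0.14, adjusted p = 0.000476) and 1.53-fold higher in I209S P214L cells than in P214L cells (0.62 ± 0.14, adjusted p = 0.00168), both in all 21 settings. Against ZsGreen, P214L was not called (-0.46, 95% interval -0.72 to -0.19, adjusted p = 0.0620), but it was in 9 of the 21 settings, among them DESeq2 (adjusted p = 0.0102) and the fit without the first ETV6 WT and I209S P214L libraries (-0.45, adjusted p = 0.0109). ETV6 WT 1 and I209S P214L 1, the highest Alad libraries of their groups, are the 2 with the lowest 18S share, and the part of that in the Alad level was not tested.

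Uros (ENSMUSG00000030979; chromosome 7, 133287972 to 133311801, minus strand), the synthase that closes the porphyrin ring, had 29.4, 22.8 and 25.8 CPM in I209S P214L libraries, 17.3, 14.7 and 15.4 CPM in P214L libraries, 26.5, 22.8 and 25.1 CPM in ETV6 WT libraries and 13.6, 21.4 and 15.5 CPM in ZsGreen libraries. The I209S P214L and ETV6 WT libraries lay above the P214L and ZsGreen libraries without overlap. Uros rose in ETV6 WT cells (0.56 ± 0.15, adjusted p = 0.00709) and in I209S P214L cells (0.63 ± 0.15, adjusted p = 0.00281) relative to ZsGreen cells. It was lower in P214L than in ETV6 WT cells (-0.65 ± 0.16, adjusted p = 0.00355) and higher in I209S P214L than in P214L cells (0.72 ± 0.16, adjusted p = 0.00139), and all 4 calls held in the 21 settings. Uros shares 740 bases of its span with Bccip on the opposite strand. Library strandedness is not known, so reads of the shared stretch cannot be assigned. Bccip was itself called in P214L against ETV6 WT cells (-0.27, adjusted p = 0.0412) and in I209S P214L against P214L cells (0.29, adjusted p = 0.0260). Against ZsGreen it was not called in ETV6 WT (0.10, adjusted p = 0.441) or I209S P214L cells (0.12, adjusted p = 0.338).

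Alas2, the erythroid form of the first enzyme, had only 16, 38, 9 and 18 counts summed over the libraries of I209S P214L, P214L, ETV6 WT and ZsGreen, and no comparison called it.

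Urod (ENSMUSG00000028684; chromosome 4, 116847162 to 116851610, minus strand), the decarboxylase that follows, was called in none of the 6 comparisons under any of the 21 settings. It had 65.4, 64.4 and 61.2 CPM in I209S P214L libraries, 58.0, 62.5 and 53.0 CPM in P214L libraries, 70.5, 56.4 and 60.4 CPM in ETV6 WT libraries and 68.2, 66.9 and 66.6 CPM in ZsGreen libraries. Libraries of I209S P214L and of P214L each lay below the ZsGreen libraries without overlap. The difference of P214L from ZsGreen was the largest of the 6 for Urod and missed the threshold (-0.22, 95% interval -0.39 to -0.04, adjusted p = 0.199).

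Cpox (ENSMUSG00000022742; chromosome 16, 58490655 to 58537999, plus strand), the oxidase that works on coproporphyrinogen, had 23.5, 20.4 and 24.1 CPM in I209S P214L libraries, 30.4, 33.7 and 27.3 CPM in P214L libraries, 25.9, 22.4 and 22.6 CPM in ETV6 WT libraries and 34.4, 29.1 and 31.0 CPM in ZsGreen libraries. Both I209S P214L and ETV6 WT libraries lay below the P214L and ZsGreen libraries. Cpox fell in ETV6 WT cells (-0.41 ± 0.12, adjusted p = 0.00946) and in I209S P214L cells (-0.47 ± 0.12, adjusted p = 0.00352) relative to ZsGreen cells. It was higher in P214L than in ETV6 WT cells (0.37 ± 0.12, adjusted p = 0.0247). This call was lost without ETV6 WT 2 (adjusted p = 0.0984), ETV6 WT 3 (0.0771), P214L 1 (0.0570) or P214L 2 (0.127). Cpox was lower in I209S P214L than in P214L cells (-0.43 ± 0.12, adjusted p = 0.00941), a call lost without P214L 2 (adjusted p = 0.0608).

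Ppox (ENSMUSG00000062729; chromosome 1, 171103563 to 171108760, minus strand), the next oxidase, went the opposite way to Cpox in ETV6 WT and I209S P214L cells. It had 22.6, 22.0 and 20.9 CPM in I209S P214L libraries, 16.6, 18.8 and 18.4 CPM in P214L libraries, 22.9, 23.4 and 20.1 CPM in ETV6 WT libraries and 15.9, 18.6 and 12 CPM in ZsGreen libraries. The I209S P214L and ETV6 WT libraries lay above the rest, and the P214L and ZsGreen libraries overlapped. Relative to ZsGreen cells, Ppox rose in ETV6 WT cells (0.51 ± 0.14, adjusted p = 0.00847) and in I209S P214L cells (0.49 ± 0.14, adjusted p = 0.0101). ZsGreen 3 was the lowest library, and without it neither was called (0.34, adjusted p = 0.0598, and 0.33, adjusted p = 0.0667). Ppox shares 907 bases of its span with B4galt3 on the opposite strand, which no comparison called (0.31, adjusted p = 0.0712, in ETV6 WT cells and 0.23, adjusted p = 0.171, in I209S P214L cells against ZsGreen).

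Fech (ENSMUSG00000024588; chromosome 18, 64585985 to 64623322, minus strand), the ferrochelatase that finishes heme, had 17, 21.2 and 14.4 CPM in I209S P214L libraries, 19.3, 19.7 and 24.9 CPM in P214L libraries, 16.7, 14.8 and 14.8 CPM in ETV6 WT libraries and 16.5, 20.3 and 21.8 CPM in ZsGreen libraries. Only the P214L and ETV6 WT libraries did not overlap, with P214L higher (0.47 ± 0.16, adjusted p = 0.0325). The call was lost without ETV6 WT 2 (adjusted p = 0.103), ETV6 WT 3 (0.0886) or P214L 3 (0.183). In the other 5 comparisons Fech was not called, and for ETV6 WT against ZsGreen the value was -0.34 (adjusted p = 0.0999), which was called without ZsGreen 1 (-0.47, adjusted p = 0.0379).

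The iron import gene split the groups into 2 levels. Tfrc (ENSMUSG00000022797; chromosome 16, 32427738 to 32451612, plus strand) had 179, 179 and 177 CPM in I209S P214L libraries, 304, 284 and 319.6 CPM in P214L libraries, 179, 186 and 186 CPM in ETV6 WT libraries and 320.4, 337 and 332 CPM in ZsGreen libraries. The I209S P214L and ETV6 WT libraries lay near each other and far below the rest. Tfrc was 1.85-fold lower in I209S P214L cells (-0.89 ± 0.06, adjusted p = 2.68e-09) and 1.80-fold lower in ETV6 WT cells (-0.85 ± 0.06, adjusted p = 5.90e-09) than in ZsGreen cells. It was 1.65-fold higher in P214L than in ETV6 WT cells (0.72 ± 0.06, adjusted p = 6.34e-08) and 1.70-fold lower in I209S P214L than in P214L cells (-0.76 ± 0.06, adjusted p = 2.54e-08). P214L libraries lay just below ZsGreen libraries without overlap, and that difference was not called (-0.13, 95% interval -0.24 to -0.01, adjusted p = 0.284). All of these 5 outcomes were the same in the 21 settings.

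Proliferation genes moved alongside Tfrc. The 12 genes of that list, among them Mki67 and Top2a, summed to 2337 to 2392 CPM in I209S P214L libraries, 3407 to 3440 CPM in P214L libraries, 2341 to 2575 CPM in ETV6 WT libraries and 4069 to 4159 CPM in ZsGreen libraries. Against ZsGreen, 11 of the 12 fell in I209S P214L cells, 5 in P214L cells and 11 in ETV6 WT cells. Of all 14794 genes tested, 3058, 238 and 2698 were lower in these comparisons, where 41.5%, 5.08% and 37.7% were called in either direction. Their part in the Tfrc result was not tested.

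The heavy chain of ferritin, like Alas1, was highest in P214L cells. Fth1 (ENSMUSG00000024661; chromosome 19, 9957962 to 9962462, plus strand) had 1453, 1386 and 1368 CPM in I209S P214L libraries, 1770.0, 1689 and 1662 CPM in P214L libraries, 1390.0, 1278 and 1347 CPM in ETV6 WT libraries and 1364, 1346 and 1282 CPM in ZsGreen libraries. The P214L libraries lay above the other 9. Fth1 rose 1.28-fold in P214L cells relative to ZsGreen cells (0.36 ± 0.06, adjusted p = 0.000566) and was higher than in ETV6 WT cells (0.35 ± 0.06, adjusted p = 9.16e-05). It was lower in I209S P214L than in P214L cells (-0.28 ± 0.06, adjusted p = 0.000579), and all 3 calls held in the 21 settings. Against ZsGreen the value was 0.08 in I209S P214L cells (adjusted p = 0.299) and 0.01 in ETV6 WT cells (adjusted p = 0.928).

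Counted over the 9 genes, I209S P214L against ZsGreen called 4, with Uros and Ppox higher and Cpox and Tfrc lower, where 41.5% of all genes were called. ETV6 WT against ZsGreen called 4, with Uros and Ppox higher and Cpox and Tfrc lower, where 37.7% of all genes were called. These comparisons share the ZsGreen libraries. P214L against ZsGreen called 2, Alas1 and Fth1, both higher, where 5.08% of all genes were called. P214L against ETV6 WT called 7, with Alas1, Cpox, Fech, Tfrc and Fth1 higher and Alad and Uros lower, where 29.2% of all genes were called. I209S P214L against P214L called 6, with Alad and Uros higher and Alas1, Cpox, Tfrc and Fth1 lower, where 33.0% of all genes were called. The median log2 fold change of the 9 was -0.08, -0.09 and -0.05 in I209S P214L, ETV6 WT and P214L cells against ZsGreen, 0.35 in P214L against ETV6 WT cells, -0.28 in I209S P214L against P214L cells and -0.02 in I209S P214L against ETV6 WT cells, while the median of all genes lay between -0.01 and 0.03 in each of the 6 comparisons.

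I209S P214L against ETV6 WT, the comparison the design asks about, called 0 of the 9 genes in edgeR, where 0.0338% of all genes (5 genes) were called. DESeq2 and limma-voom called 0 of the 9 as well, and 0 had an unadjusted p under 0.05. The 9 log2 fold changes ran from -0.11 for Alad (95% interval -0.37 to 0.15) to 0.18 for Fech (-0.13 to 0.49). The narrowest intervals were those of Fth1 (0.07, -0.04 to 0.18) and Tfrc (-0.04, -0.16 to 0.08), and the widest were those of Fech and Uros (0.07, -0.23 to 0.37). Missing the threshold does not show equal levels, and for the genes of lowest counts differences up to these bounds remain possible.

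**Figure D2:**
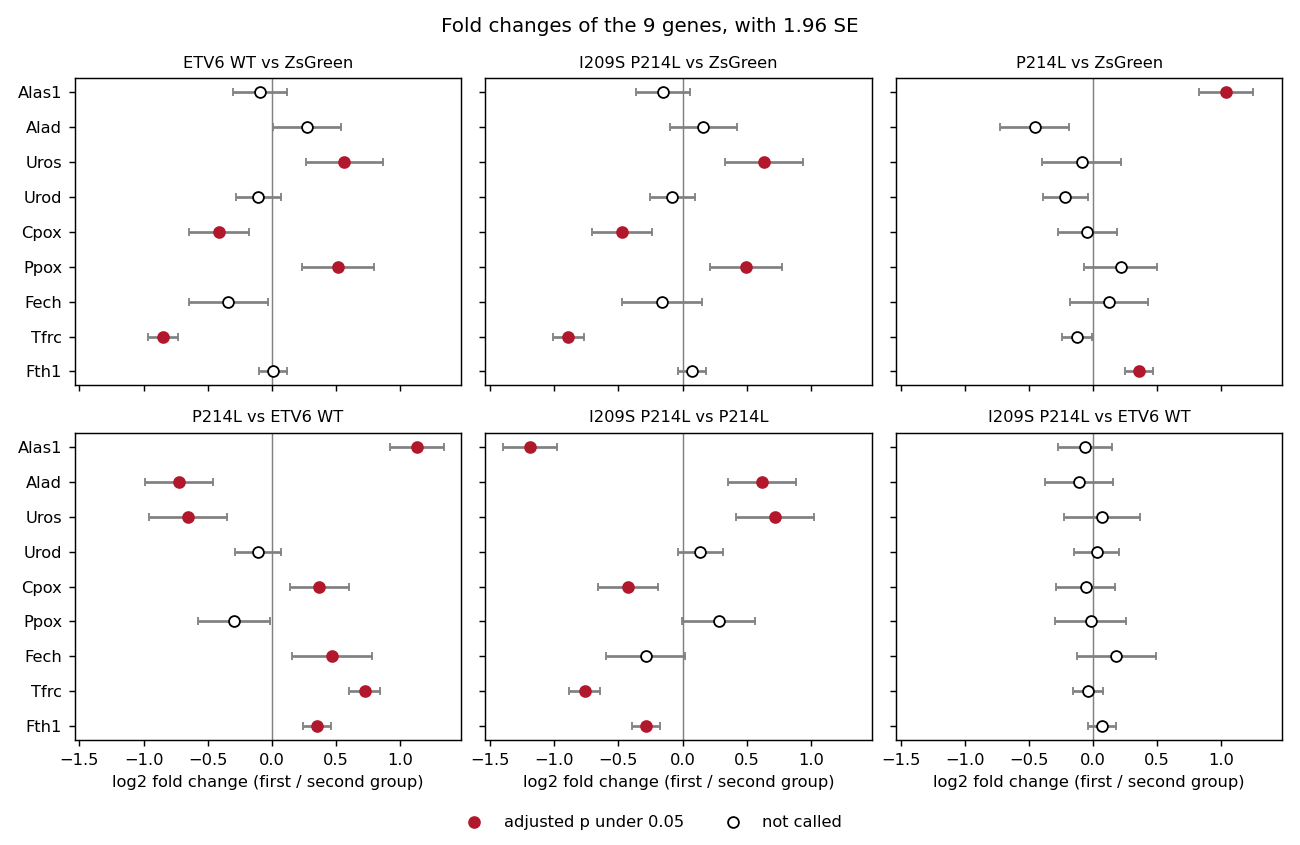
Log2 fold changes of the 9 genes are plotted for the 6 comparisons, the first-named group over the second, with bars of the 95% interval and filled points where the adjusted p is under 0.05. Filled points number 4, 2 and 4 for I209S P214L, P214L and ETV6 WT over ZsGreen, 7 for P214L over ETV6 WT, 6 for I209S P214L over P214L and 0 for I209S P214L over ETV6 WT.

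The other genes of the pathway were read from a list of 42, of which 38 passed the filter. Aco1, Hamp, Hebp1 and Slc40a1 did not. Of the 38, I209S P214L against ZsGreen called 16 higher and 11 lower, P214L against ZsGreen 4 higher and 1 lower, and ETV6 WT against ZsGreen 17 higher and 10 lower. P214L against ETV6 WT called 7 higher and 13 lower, and I209S P214L against P214L called 11 higher and 7 lower. Over all genes, these 5 comparisons called 41.5%, 5.08%, 37.7%, 29.2% and 33.0%, in the order given. I209S P214L against ETV6 WT, where 0.0338% of all genes were called, gave 0 of the 38 in edgeR and in limma-voom. DESeq2 called 1 of them, Hmox1, and 22 of all genes. An unadjusted p under 0.05 in edgeR was found for 3 of the 38. The share of all genes under that unadjusted threshold was not counted, so the 3 cannot be read as an excess. The median log2 fold changes of the 38 were 0.14, 0.04, 0.08, -0.06, 0.05 and 0.01 in the first-named over the second-named group of these 6 comparisons.

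Of the iron storage genes, Ftl1 and Ncoa4 rose with every ETV6 construct. Ftl1, the ferritin light chain, had 2659, 2743 and 2876 CPM in I209S P214L libraries, 1451, 1554 and 1482 CPM in P214L libraries, 2282, 2371 and 2571 CPM in ETV6 WT libraries and 1098, 1121 and 1037 CPM in ZsGreen libraries. The 4 groups did not overlap. Relative to ZsGreen cells it rose by 1.35 on the log2 scale in I209S P214L cells (adjusted p = 8.54e-12), by 0.46 in P214L cells (adjusted p = 9.28e-05) and by 1.15 in ETV6 WT cells (adjusted p = 8.26e-11). Ncoa4, the receptor that delivers ferritin to lysosomes, averaged 725 ± 18.9 CPM in I209S P214L cells, 362 ± 16.1 CPM in P214L cells, 688 ± 29.0 CPM in ETV6 WT cells and 278 ± 11.7 CPM in ZsGreen cells (SD, n = 3 each). Its log2 fold change against ZsGreen was 1.38 in I209S P214L cells (adjusted p = 8.85e-12), 0.38 in P214L cells (adjusted p = 0.000819) and 1.30 in ETV6 WT cells (adjusted p = 2.46e-11).

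The ratio of light to heavy chain transcripts was chosen after the values were seen and is given as a description. An exact permutation test was run on it. With 3 against 3 libraries its p cannot fall below 0.1, so it decides nothing. In Ftl1 over Fth1 FPKM it was 4.74, 5.12 and 5.44 in I209S P214L libraries, 2.12, 2.38 and 2.31 in P214L libraries, 4.25, 4.80 and 4.94 in ETV6 WT libraries and 2.08, 2.16 and 2.10 in ZsGreen libraries. The I209S P214L and ETV6 WT libraries overlapped each other and lay above all P214L and ZsGreen libraries. The level of the ratio depends on the deposited gene lengths (3469 bases for Fth1, against 929 in the transcript searched for hairpins), while the relative difference between groups does not. Ftl1-ps1, a near copy of Ftl1, had counts equal to 1.87% of those of Ftl1, and Fth-ps2 0.0235% of those of Fth1, so reads shared with copies add some uncertainty.

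**Figure D3:**
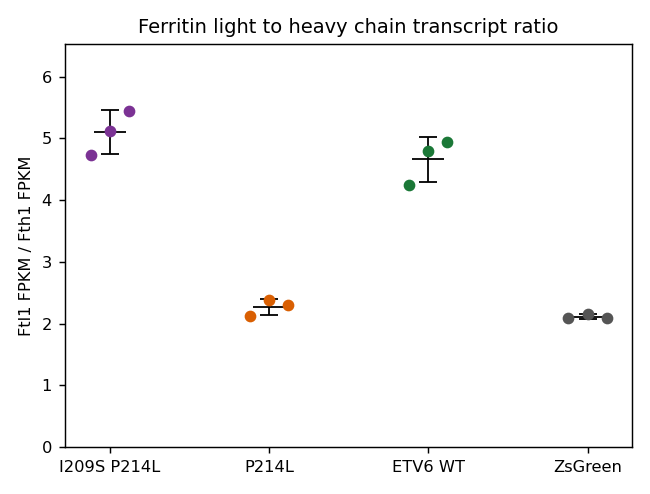
The ratio of Ftl1 to Fth1 FPKM is plotted on a linear axis from 0 for each library (points), with the group mean and SD (bars). The I209S P214L and ETV6 WT libraries lie between 4.25 and 5.44, and the P214L and ZsGreen libraries between 2.08 and 2.38.

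Other iron uptake genes went in both directions. Steap3, an endosomal ferrireductase, averaged 75.2 ± 9.27 CPM in I209S P214L cells, 24.2 ± 2.95 CPM in P214L cells, 65.6 ± 12.6 CPM in ETV6 WT cells and 26.2 ± 3.77 CPM in ZsGreen cells. It rose in I209S P214L (1.52, adjusted p = 1.34e-07) and ETV6 WT cells (1.32, adjusted p = 8.86e-07) but was not called in P214L cells (-0.12, adjusted p = 0.734) against ZsGreen. Slc11a2, the transporter that moves iron out of the endosome, averaged 11.6 ± 0.577 CPM in I209S P214L cells, 21.7 ± 2.25 CPM in P214L cells, 13 ± 1.51 CPM in ETV6 WT cells and 25.8 ± 4.35 CPM in ZsGreen cells. It fell in I209S P214L (-1.15, adjusted p = 4.62e-06) and ETV6 WT cells (-0.99, adjusted p = 2.59e-05) against ZsGreen. Lcn2, lipocalin 2, which binds iron-carrying siderophores, had 0, 2 and 0 counts in I209S P214L libraries, 143, 145 and 136 counts in P214L libraries, 1, 0 and 0 counts in ETV6 WT libraries and 117, 30 and 93 counts in ZsGreen libraries. It was lower in I209S P214L (adjusted p = 1.06e-06) and ETV6 WT cells (adjusted p = 7.35e-07) than in ZsGreen cells, and at such counts no fold is given.

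Of 7 genes of heme transport and breakdown tested, the same 4 (Hmox1, Flvcr1, Slc48a1 and Blvrb) were higher and 0 lower against ZsGreen in both I209S P214L and ETV6 WT cells. Hmox2 (0.09 and -0.05), Blvra (-0.11 and -0.12) and Flvcr2 (0.21 and -0.29) were not called in either. Of all 14794 genes tested, 3081 and 2882 were higher in these comparisons, where 41.5% and 37.7% were called in either direction. Hmox1, heme oxygenase 1, which breaks heme down, had 169, 153 and 167 CPM in I209S P214L libraries, 54.8, 52.0 and 56.2 CPM in P214L libraries, 122, 127 and 119 CPM in ETV6 WT libraries and 40.1, 28.8 and 30.4 CPM in ZsGreen libraries. The 4 groups did not overlap. Against ZsGreen it rose by 2.30 on the log2 scale in I209S P214L cells (adjusted p = 7.43e-12), by 0.71 in P214L cells (adjusted p = 0.000274) and by 1.89 in ETV6 WT cells (adjusted p = 1.13e-10). In I209S P214L against ETV6 WT cells its log2 fold change was 0.41 (adjusted p = 0.421), which was called with DESeq2 (0.42, adjusted p = 0.0149), with no low-count filter (0.40, adjusted p = 0.00502) and without ZsGreen 1 (0.41, adjusted p = 0.0434). Against ZsGreen, Flvcr1, a heme exporter, rose in I209S P214L (1.42, adjusted p = 3.17e-08) and ETV6 WT cells (1.02, adjusted p = 2.19e-06), as did Slc48a1, which carries heme out of lysosomes (1.11, adjusted p = 1.12e-09, and 0.98, adjusted p = 6.78e-09). Blvrb, a biliverdin reductase, rose too (0.54, adjusted p = 0.000427, in I209S P214L cells and 0.38, adjusted p = 0.00782, in ETV6 WT cells), the second call being lost under 2 of the 20 alternatives. In P214L cells none of Flvcr1, Slc48a1 and Blvrb was called against ZsGreen (0.30, 0.05 and -0.10).

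Mitochondrial genes split. Slc25a37, mitoferrin 1, which imports iron, averaged 134 ± 6.83 CPM in I209S P214L cells, 84.5 ± 0.961 CPM in P214L cells, 139 ± 6.66 CPM in ETV6 WT cells and 63.0 ± 2.95 CPM in ZsGreen cells. It rose against ZsGreen in all 3 (1.08, adjusted p = 1.14e-09; 0.42, adjusted p = 0.00106; 1.14, adjusted p = 7.66e-10, in that order). Against ZsGreen, Abcb10, a mitochondrial transporter that binds mitoferrin 1, rose in I209S P214L (0.82, adjusted p = 5.53e-05) and ETV6 WT cells (1.02, adjusted p = 5.22e-06). Tmem14c, a porphyrin transporter, fell in I209S P214L (-0.39, adjusted p = 0.000862) and ETV6 WT cells (-0.42, adjusted p = 0.000430).

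Of the regulators, Bach1, a heme-sensing repressor of Hmox1, averaged 157 ± 6.16 CPM in I209S P214L cells, 95.4 ± 0.311 CPM in P214L cells, 147 ± 16.8 CPM in ETV6 WT cells and 83.7 ± 2.13 CPM in ZsGreen cells. Against ZsGreen it rose in I209S P214L (0.91, adjusted p = 4.07e-08) and ETV6 WT cells (0.81, adjusted p = 2.13e-07) and was not called in P214L cells (0.19, adjusted p = 0.200). Ireb2, an iron regulatory protein, fell by 0.21 on the log2 scale against ZsGreen in ETV6 WT cells (adjusted p = 0.0208; not called under 4 of the 20 alternatives) and had -0.16 in I209S P214L cells (adjusted p = 0.0685). Fbxl5, which marks that protein for destruction when iron is plentiful, rose against ZsGreen in I209S P214L (0.60, adjusted p = 0.00497) and ETV6 WT cells (0.50, adjusted p = 0.0167; not called under 4). Nfe2l2, the oxidative stress factor NRF2, had 0.16 in ETV6 WT against ZsGreen cells (adjusted p = 0.0497), a call lost under 17 of the 20 alternatives.

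**Figure D4:**
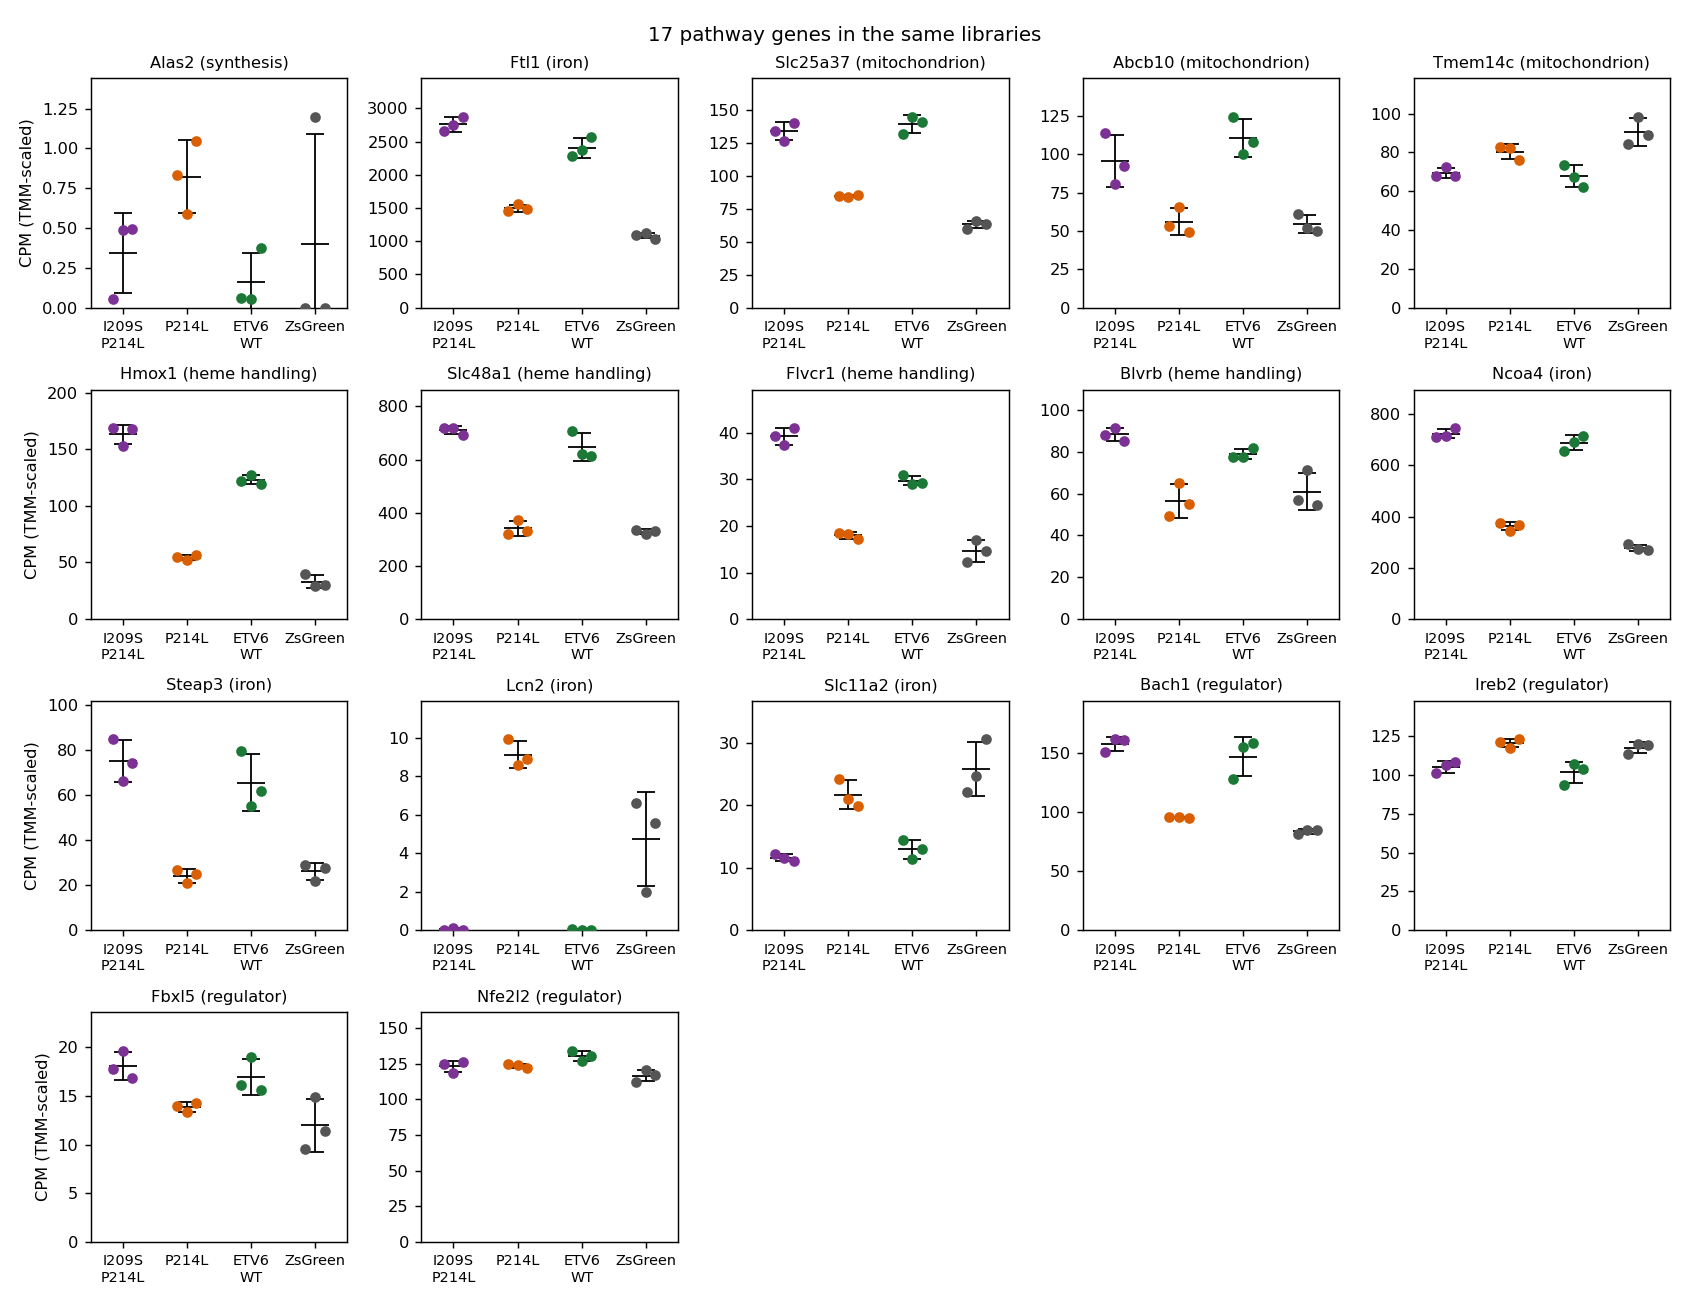
The TMM-scaled CPM of 17 pathway genes is plotted on linear axes from 0 for the 3 libraries of each group (points), with the group mean and SD (bars). Ftl1 averages 2759, 1496, 2408 and 1085 CPM and Hmox1 163, 54.3, 123 and 33.1 CPM in I209S P214L, P214L, ETV6 WT and ZsGreen cells.

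The genes whose log2 CPM was most like that of a member over the 12 libraries were sought among 9408 protein-coding genes averaging at least 5 CPM. The 12 libraries share the 4 group means, so these correlations are descriptions. Alas1 was most like Entpd5 (Pearson r = 0.98), Ctsd (0.97) and Csf1 (0.97), and Fth1 was most like Entpd5 (0.95), Ctsd (0.94) and Pgam1 (0.92). Tfrc was most like Arhgap11a, Cpsf3 and Exosc2 (0.99 each). Uros was most like Zc3h13 (0.97), Prkcd (0.96) and Ell (0.96), and Alad like Ddx24 (0.92), Smad3 (0.92) and Phf13 (0.91). Cpox was most like Tmco1 (0.98), Acacb (0.97) and the erythroid factor Klf1 (0.96), and Ppox like Gdf11 (0.96), Slc25a45 (0.95) and Oasl1 (0.94).

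Promoter windows from 250 bases before to 50 bases after the RefSeq start (GRCm38.p6) were searched on both strands for 6 motifs in 13 windows of 8 of the 9 genes, Fech not being searched. CCGGAA, the core bound by ETS factors, was in 3 of the 13 windows, of Alad, Cpox and Uros, and in 14.9% of all 32851 windows. The longer CGGAAGT, which can overlap that core, was in none of the 13 (6.42% of all windows), and neither was TGACNNNGC, the antioxidant response core (12.4%). The full NRF1 motif, spelled in capitals in the Alas1 window, was in 2 windows of Alas1 (0.971% of all windows). A looser form, with the fifth base left free, holds the full one and was in 3 of the 13 windows, of Alas1 and Uros (4.60% of all windows). CACGTG, the E-box, was in 4 of the 13 windows, of Alad, Urod and Uros (7.15% of all windows). The Alas1 and Uros windows are printed to show these letters for the gene that was high in P214L cells and for one that was lower in them than in ETV6 WT cells; they were picked after the matches were seen, and they are the 250 bases before the start on the gene's strand, with the full NRF1 motif (Alas1, from position -195) or the reverse complement of CCGGAA (Uros, from position -20) in capitals. The Alas1 window is chr9:106247731-106247980 and the Uros window chr7:133709296-133709545, both on the minus strand.
Alas1: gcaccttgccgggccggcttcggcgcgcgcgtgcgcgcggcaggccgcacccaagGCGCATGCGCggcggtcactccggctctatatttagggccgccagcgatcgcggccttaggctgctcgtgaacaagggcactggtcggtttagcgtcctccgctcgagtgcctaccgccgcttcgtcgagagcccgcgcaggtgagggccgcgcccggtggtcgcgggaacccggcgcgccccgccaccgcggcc
Uros: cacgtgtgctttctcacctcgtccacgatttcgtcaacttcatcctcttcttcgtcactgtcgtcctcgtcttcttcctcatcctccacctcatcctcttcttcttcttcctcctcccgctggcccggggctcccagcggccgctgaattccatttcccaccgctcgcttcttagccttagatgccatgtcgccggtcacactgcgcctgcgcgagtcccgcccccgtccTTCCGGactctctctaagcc
The span of Bccip (mm39 chromosome 7, 133311062 to 133322874, plus strand) runs past the Uros start at 133311801. Letters before that start, the CCGGAA match among them, may thus belong to Bccip as well. These libraries do not measure binding of ETV6 or of any other factor at these windows.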

How the data were processed

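RNA of 12 Ba/F3 libraries in 4 groups of 3 was measured after poly-A selection, per the labels' protocols. Reads were aligned to mm39 with HISAT2 2.0.5 and counted per gene with featureCounts 1.5.0-p3, per the submitters' processing notes. The protocols describe directional and non-directional libraries alike, so strandedness is not known. Raw counts per gene, FPKM, gene lengths and positions were deposited by the authors in 1 table, per the file headers. The deposited FPKM was used only for levels compared between genes and for the ferritin ratio, and the gene length only to describe these.

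Tests used edgeR 4.0.16 (R 4.3.3): filterByExpr, TMM scaling and a quasi-likelihood fit of 4 group means over the 12 libraries together. Benjamini-Hochberg adjustment ran over the 14794 genes tested, with a threshold of 0.05. Alternatives included DESeq2 1.42.0 and limma 3.58.1 (voom). The steps were tested on simulated data. They missed the first pass mark, which was then limited to genes averaging at least 5 CPM. Below that level almost none of the simulated changed genes were recovered, so power is low there. For genes at such levels, such as Alas2 and Flvcr2, the lack of a call says little. Total counts of 14301683 to 18607595 limit the precision.

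The 9 genes, the gene lists and the tests were chosen with earlier results of these data known. The pathway genes named are Alas2, Ftl1 and, of each other role, up to 4 with the smallest adjusted p of any difference; some genes under this rule are not reported here. The most alike genes are the 3 with the highest Pearson correlation of log2 CPM (prior count 2). The ferritin ratio and the printed promoter windows were chosen after values were seen. Sequences come from GENCODE M21 and RefSeq on GRCm38, whose coordinates differ from mm39.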

Additional observations from a re-analysis of the deposited data

How the results depend on the processing

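Each result was recomputed under 20 alternatives: RLE size factors, no low-count filter, a stricter filter, DESeq2, limma-voom, the 2 compared groups alone, the replicate number as a block, each of the 12 libraries left out, and ETV6 WT 1 and I209S P214L 1 left out together. For the 9 genes, 1058 recomputed values kept their side of the threshold, 12 were newly called and 10 lost their call. For the pathway genes picked by the naming rule, those not reported here included, 2208 did so, 16 were newly called, 43 lost their call and 1 reversed. The count of the 9 genes called, over the fits with a library left out, was 4 in I209S P214L, 2 to 3 in P214L and 3 to 5 in ETV6 WT cells against ZsGreen, 5 to 7 in P214L and 0 in I209S P214L against ETV6 WT cells, and 5 to 6 in I209S P214L against P214L cells. For the pathway genes these ranges were 20 to 28, 4 to 5, 22 to 27, 15 to 20, 0 to 1 and 15 to 21 in the same order. These fits tested 15301 to 15473 genes. Over all of them, 5396 to 6378, 369 to 960 and 4843 to 5736 were called against ZsGreen. In the remaining comparisons 3422 to 4552, 1 to 6 and 3943 to 5119 were called, in the same order. The count of pathway genes in I209S P214L against ETV6 WT cells was 1 (Hmox1) rather than 0 with no low-count filter, with DESeq2 and without ZsGreen 1. Over all genes, these settings called 38, 22 and 6 in that comparison. Alas2 in I209S P214L against ZsGreen cells had -0.20, and -0.81 to 5.53 with a library left out. It turned positive without ZsGreen 2 (5.53, adjusted p = 0.0383), the library with all 18 ZsGreen counts of that gene, so no direction is given for it. Whether replicate numbers pair the libraries is not clear. Only 2 of 18 same-numbered pairs had deviations correlated above 0.1 (-0.06 to 0.53 over the 18). Those 2, at 0.53 and 0.25, both joined ETV6 WT and I209S P214L libraries, and the highest value between different numbers was 0.16. Of the 12 libraries, 8 correlated best with their own number. With the replicate block, the counts for the 9 genes were 4, 2, 4, 7, 0 and 6 in the order above, as without it. Of all 14794 genes, the fit with the block called 6357, 881, 5790, 4522, 4 and 5102. Low counts limit Alas2 and Lcn2.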
